A study of Mus musculus with 8 samples.

Results

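Transcript levels of the AP-1 family are described here in CD4+ CD25+ T cells, a gate rich in regulatory T cells, taken by sorting out of visceral fat (called adipose tissue below) and spleen of C57BL/6 mice. The 8 genes Fos, Fosb, Fosl1, Fosl2, Jun, Junb, Jund and Atf3 were taken by name from the deposited table, and all 8 were among its 45232 gene names. The mice were of genotype Id2 CKO (KO below) or WT. The 4 groups were KO adipose tissue, WT adipose tissue, KO spleen and WT spleen, with 2 libraries each, numbered 2 and 3, and at least 500 sorted cells per library. All groups came from the same strain and gate. What drives the Id2 deletion, how old the mice were and whether libraries came from separate or pooled mice were not stated, so each p-value is set by the spread of library pairs that may differ for technical reasons alone. The family was selected on earlier results of these data, in which TPM values of immediate early genes such as Fos were high in adipose tissue against spleen. Its tissue differences, in both genotypes, are therefore given as a description with no p-value per member. Counts of its calls between the tissues support nothing. The differences between genotypes, which did not guide the choice, were tested.

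AP-1 is a dimer of proteins with a basic region that binds DNA and a leucine zipper that joins the partners. FOS proteins (Fos, Fosb, Fosl1, Fosl2) do not form stable dimers with each other and need a JUN partner (Jun, Junb, Jund), while JUN proteins can also pair among themselves. Atf3 is a related zipper protein that pairs with JUN proteins and often represses transcription. Fos, Fosb, Jun, Junb and Atf3 are immediate early genes, whose transcripts appear within minutes of a stimulus and decay quickly, whereas Jund is expressed more steadily. In T cells AP-1 acts with NFAT downstream of the antigen receptor and is needed for cytokine genes such as Il2.

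The stretches just before the start sites of 5 genes are shown because their transcripts stood higher in adipose tissue than in spleen and because each holds a motif read by the CREB and ATF families, which respond to signals at such early genes. The windows are 150 bases long, from RefSeq on GRCm38.p6, 5′ to 3′ on the strand of the gene, and the capitals mark TGACG on either strand (CGTCA on the other) or TGACATCA.
Fos, chr12:85473740-85473889, plus strand: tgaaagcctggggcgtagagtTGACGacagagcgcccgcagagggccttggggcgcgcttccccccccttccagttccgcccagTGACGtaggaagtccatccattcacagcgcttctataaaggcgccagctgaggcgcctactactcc
Fosb, chr7:19310046-19310195, minus strand: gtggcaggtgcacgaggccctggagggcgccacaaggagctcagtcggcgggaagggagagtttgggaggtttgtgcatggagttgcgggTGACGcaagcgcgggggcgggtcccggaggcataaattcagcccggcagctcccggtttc
Junb, chr8:84978749-84978898, minus strand: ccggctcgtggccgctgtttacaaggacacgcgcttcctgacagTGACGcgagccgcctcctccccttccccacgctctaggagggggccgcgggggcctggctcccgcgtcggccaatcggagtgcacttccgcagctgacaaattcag
Atf3, chr1:191183334-191183483, minus strand: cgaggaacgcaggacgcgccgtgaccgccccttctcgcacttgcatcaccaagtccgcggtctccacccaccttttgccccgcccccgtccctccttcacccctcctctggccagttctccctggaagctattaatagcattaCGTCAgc
Jun, chr4:95052223-95052372, minus strand: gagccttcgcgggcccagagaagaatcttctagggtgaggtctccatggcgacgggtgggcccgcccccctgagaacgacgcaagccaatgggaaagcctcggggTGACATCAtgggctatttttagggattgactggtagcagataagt

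Of the 7 members with a RefSeq window (Fosl1 had none), 4 held TGACG, at positions -129 and -66 from the start site in Fos, -60 in Fosb, -106 in Junb and -7 in Atf3. It was in 13.3% of all 32851 mouse windows of this length. TGACATCA was in 1 member, Jun, at position -45, and in 2.32% of all windows. The AP-1 motif TGANTCA was in 0 of the 7 windows and in 4.24% of all, and the full motif TGACGTCA, which contains TGACG, was in 0 of the 7 and in 1.36%. A TATAAA box was in the Fos window alone, at -33, and in 7.57% of all. All motifs were searched on both strands, and a match describes letters only, not binding. The start sites are those of RefSeq, and some differ from the gene bounds in GENCODE M21. The Jund window ends at base 70697738, before the GENCODE start of Jund at 70698949. The Atf3 and Fosl2 windows lie inside the GENCODE bounds of these genes. A motif missing from a window may therefore lie near another start site.

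The libraries also differed in other transcripts, and the part of this in the AP-1 values was not tested. Between 13184 and 20684 gene names had a value above 0, and 0 of 15 housekeeping genes were at 0 in any library. Id2, which the KO targets, stood at 1499 and 1298 TPM in the KO adipose libraries against 2249 and 3679 TPM in the WT adipose libraries, and at 72.1 and 265 TPM in the KO spleen libraries against 274 and 346 TPM in the WT spleen libraries. Both tissues thus had the lower levels in KO without overlap (log2 fold change -1.04 in adipose tissue, limma adjusted p = 0.751, and -1.15 in spleen, limma adjusted p = 1), but the transcript was present in all 8 libraries. The T cell genes Cd3e (lowest 67.3 TPM, in KO spleen 2), Cd4 (lowest 58.4 TPM, in KO adipose 3) and Il2ra (lowest 33.8 TPM, in KO adipose 2) were present in all 8 libraries, while Foxp3, which defines regulatory T cells, was low in KO adipose 2 (7.40 TPM) and KO spleen 2 (8.27 TPM) against 93.5 to 266 TPM in the other 6. Macrophage and monocyte markers summed to 11200 TPM in KO adipose 3 and to between 9.41 and 615 TPM in the other 7 libraries. Transcripts of 5 erythroid genes, mostly haemoglobin, summed to between 38.4 and 107608 TPM, and these count within the 1000000 TPM of each library.

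Fos is the namesake of its branch and the usual partner of Jun. On the log2(TPM + 1) scale it had the widest gap between the tissues of the 8 members. It was at 1779 and 1525 TPM in the KO adipose libraries, 1475 and 3107 TPM in the WT adipose libraries, 6.48 and 2.21 TPM in the KO spleen libraries, and 6.11 and 15.2 TPM in the WT spleen libraries. All 4 adipose libraries stood far above all 4 spleen libraries, and within a tissue the genotypes overlapped. The log2 fold change of adipose tissue against spleen, on the log2(TPM + 1) scale used for all fold changes here, was 8.39 in KO and 7.64 in WT (limma SE 0.57 for each).

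Fosb, a close paralog of Fos, was at 30.5 and 59.99 TPM in the KO adipose libraries, 31.1 and 107 TPM in the WT adipose libraries, 0.252 and 0.331 TPM in the KO spleen libraries, and 0.448 and 0.463 TPM in the WT spleen libraries. It split the tissues without overlap, at a level well below that of Fos, with log2 fold changes of 5.09 in KO and 5.34 in WT (SE 0.67). Fosl2, which encodes Fra-2, was at 5.97 and 10.6 TPM in the KO adipose libraries, 5.87 and 19.6 TPM in the WT adipose libraries, and under 1 TPM in each spleen library. Its log2 fold changes were smaller, 2.31 in KO and 2.99 in WT (SE 0.69), a scale on which changes from values near 0 are understated.

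Fosl1, which encodes Fra-1, did not share this pattern. It was listed at 0 and 1.60 TPM in the KO adipose libraries, 0 and 0.638 TPM in the WT adipose libraries, 1.39 and 0.555 TPM in the KO spleen libraries, and 0 and 0.487 TPM in the WT spleen libraries. The groups of both tissues overlapped, and no library reached 2 TPM. The TPM unit holds no read depth, so a value of 0 is given as listed.

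Among the JUN genes, Junb, whose protein can dampen or replace Jun at shared sites, was the most abundant member in every library. It was at 2163 and 2860 TPM in the KO adipose libraries, 3418 and 7229 TPM in the WT adipose libraries, 60.2 and 192 TPM in the KO spleen libraries, and 97.3 and 320 TPM in the WT spleen libraries. Every adipose library was above every spleen library, and in adipose tissue both KO libraries lay below both WT libraries. In WT adipose 3 it ranked 11 among all gene names by TPM, and in KO spleen 2 it ranked 1759. The log2 fold change of adipose tissue against spleen was 4.52 in KO and 4.81 in WT (SE 0.71). In the GENCODE M21 annotation 5 of the 8 members overlap a gene on the opposite strand: Junb with Prdx2, Jun with Junos, Jund with Gm11175, Atf3 with Gm24748 and Fosl1 with Ccdc85b. Where reads are counted without strand, the reads of such a pair cannot be told apart, and the part of this in the members' values was not tested. Prdx2 was at 126 and 189 TPM in the KO adipose libraries, 144 and 161 TPM in the WT adipose libraries, 187 and 352 TPM in the KO spleen libraries, and 181 and 255 TPM in the WT spleen libraries.

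Jun itself was at 28.3 and 284 TPM in the KO adipose libraries, 90.6 and 610 TPM in the WT adipose libraries, 0.668 and 1.39 TPM in the KO spleen libraries, and 3.77 and 20.2 TPM in the WT spleen libraries. The adipose libraries were again all above the spleen libraries, but the 2 libraries of a group differed widely, with that numbered 3 higher in each of the 4 groups. Jun shared this with Fosb and Junb (3 of 8 members, where 24.2% of tested genes did so), and 0 of 8 were lower in all 4 groups, where 6.54% were. The log2 fold change of adipose tissue against spleen was 5.52 in KO and 4.56 in WT (SE 1.24). Within the libraries numbered 2 it was 4.14 in KO and 4.26 in WT, and within those numbered 3 it was 6.90 in KO and 4.85 in WT.

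Jund, the steadier JUN gene, showed the narrowest tissue gap of those that split the tissues, on the log2(TPM + 1) scale. It was at 60.4 and 30.9 TPM in the KO adipose libraries, 166 and 64.5 TPM in the WT adipose libraries, 12.01 and 21.6 TPM in the KO spleen libraries, and 28.3 and 28.4 TPM in the WT spleen libraries. Within each genotype the adipose libraries were above the spleen libraries, with log2 fold changes of 1.37 in KO and 1.83 in WT (SE 0.55). In adipose tissue the library numbered 3 was the lower one in both genotypes, opposite to Jun. Its overlapping gene Gm11175 was listed at 9.15 TPM in KO adipose 2, 57.2 TPM in WT adipose 2 and 0 in the other 6 libraries.

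Atf3 varied most between libraries of 1 group. It was at 0.0372 and 119 TPM in the KO adipose libraries, 8.75 and 125 TPM in the WT adipose libraries, 0.0157 and 0.0275 TPM in the KO spleen libraries, and 0 and 0 TPM in the WT spleen libraries. It was near or at 0 in all 4 spleen libraries and in KO adipose 2, intermediate in WT adipose 2, and high in both adipose libraries numbered 3. The log2 fold changes of 3.45 in KO and 5.13 in WT carried an SE of 1.98. Without KO adipose 3 the KO value was 0.022, and without KO adipose 2 it was 6.88.

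**Figure D1:**
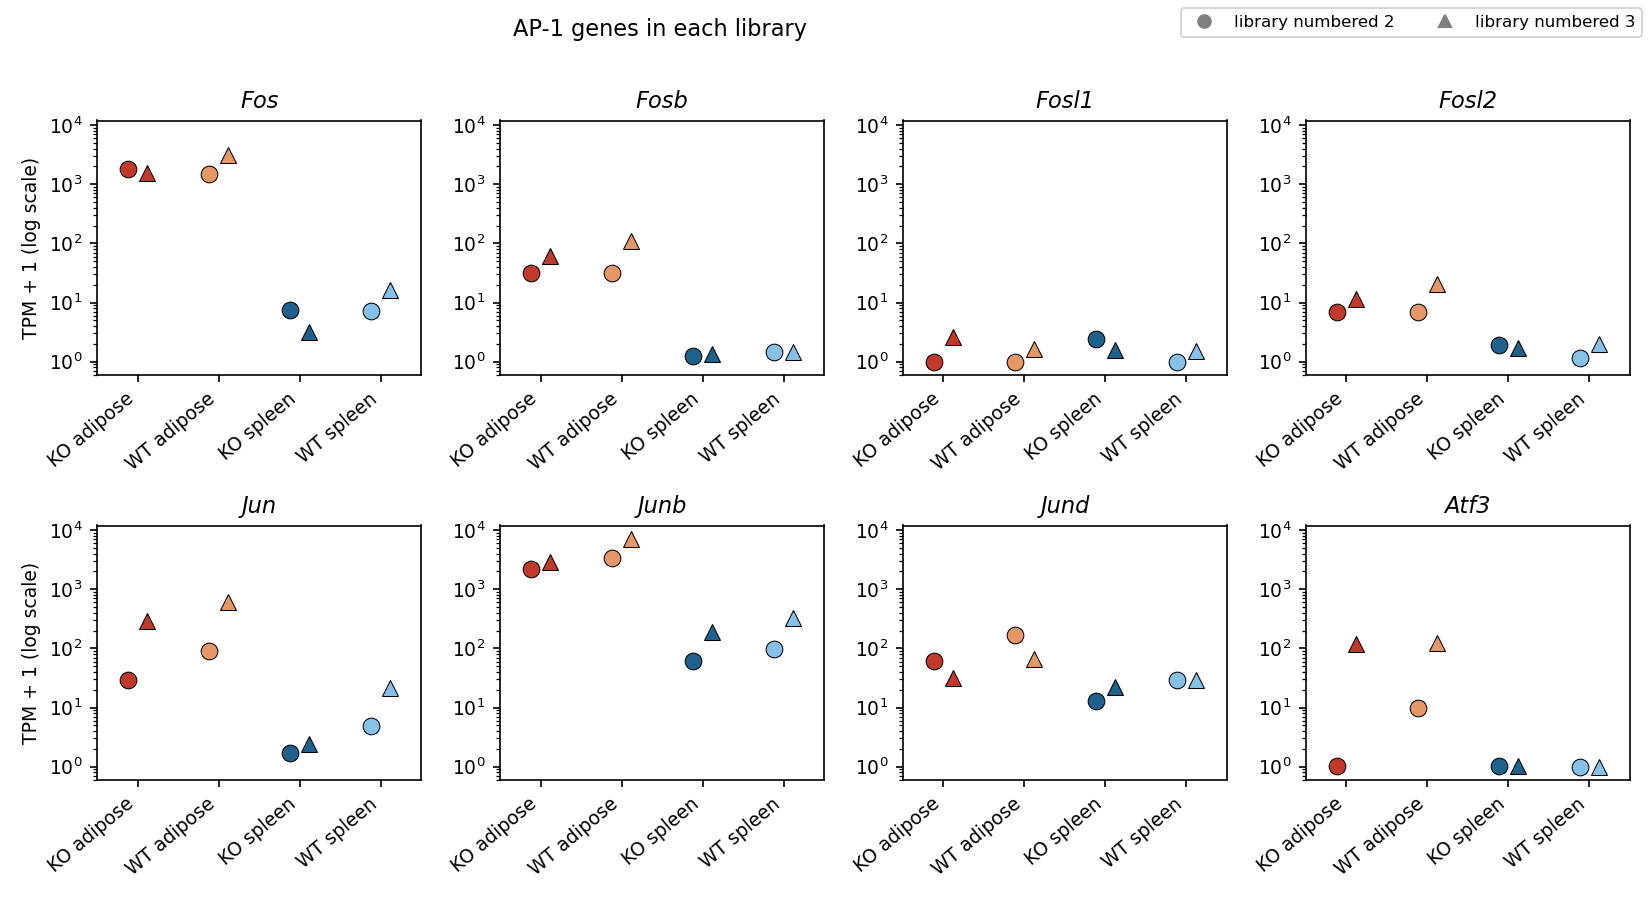
TPM + 1 of each AP-1 gene on a log axis, by group (KO adipose, WT adipose, KO spleen, WT spleen), with circles for libraries numbered 2 and triangles for those numbered 3. Fos, Fosb and Junb are high in all 4 adipose libraries, Fosl1 stays under 2 TPM in all 8 libraries, and Atf3 reaches 119 and 125 TPM in the 2 adipose libraries numbered 3.

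In both genotypes, 7 of the 8 members, all but Fosl1, had adipose libraries above the spleen libraries without overlap, where 22.1% of the 13376 tested genes did so in KO and 37.8% in WT. For Atf3 in KO this order rests on 0.0372 TPM in KO adipose 2 against 0.0157 and 0.0275 TPM in the spleen libraries. With limma and an adjusted p under 0.05, 3 members (Fos, Fosb, Junb) were called as higher in adipose tissue in KO, against 0.927% of tested genes called as higher, and 2 members (Fos, Fosb) in WT, against 0.135%. Of those called, Fosb was under 1 TPM in each spleen library, so it passed the filter only through the adipose libraries. These counts describe a contrast with which the family was chosen and support nothing. They rested on single libraries: leaving out 1 library gave 1 to 4 members in KO and 0 to 2 in WT. In WT it was 0 without KO adipose 2, KO adipose 3 or WT spleen 2. It was 1 (Fos) without WT adipose 3, KO spleen 2, KO spleen 3 or WT spleen 3. In KO it was 4 without KO adipose 2, and 1 (Fos) without KO adipose 3 or any 1 spleen library. With the replicate number as a block, 4 members (Fos, Fosb, Jun, Junb) were called in WT. The median log2 fold change over the 8 members was 3.98 in KO and 4.68 in WT, beside 0.16 and 0.32 over all tested genes, medians that quantile normalization moved to -0.11 and -0.0033. Any difference in how fat and spleen were handled comes with the tissue, and the design cannot separate them. In these bulk libraries more cells with a transcript and more transcript per cell cannot be told apart.

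**Figure D2:**
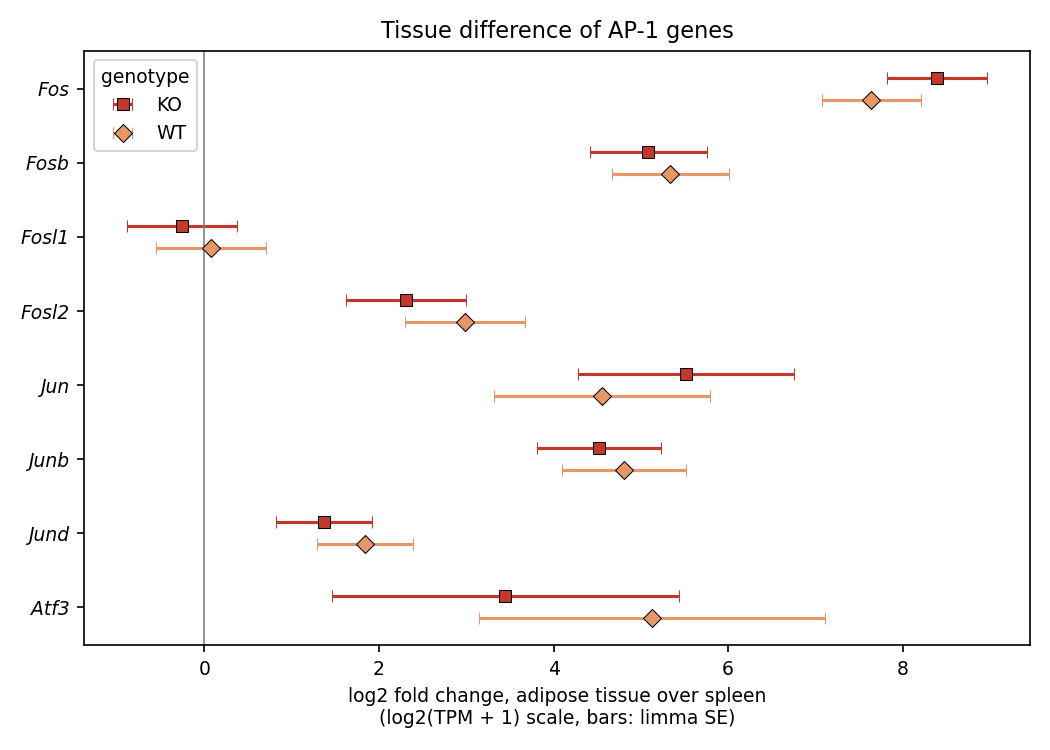
Log2 fold change of adipose tissue over spleen for each AP-1 gene on the log2(TPM + 1) scale, with squares for KO, diamonds for WT and bars for the limma SE. Fos has the largest value in both genotypes (8.39 in KO, 7.64 in WT), Jund a small one and Fosl1 one near 0.

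The make-up of the family also differed between the tissues. TPM is corrected for transcript length, so levels can be set side by side between genes. The summed TPM of the 8 genes was 4067 and 4891 in KO adipose tissue, 5195 and 11262 in WT adipose tissue, 82.0 and 218 in KO spleen, and 136 and 385 in WT spleen. Junb came first in all 8 libraries. Fos came second in the 4 adipose libraries, and Jund came second in the 4 spleen libraries.

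Fos supplied 43.7% and 31.2% of the sum in KO adipose tissue and 28.4% and 27.6% in WT adipose tissue, against 7.91% and 1.014% in KO spleen and 4.49% and 3.95% in WT spleen. Jund supplied 1.49% and 0.632% in KO adipose tissue and 3.20% and 0.572% in WT adipose tissue, against 14.7% and 9.88% in KO spleen and 20.8% and 7.36% in WT spleen. The ratio of summed JUN to summed FOS transcripts was 1.24 and 1.99 in KO adipose tissue and 2.43 and 2.44 in WT adipose tissue, against 8.07 and 56.0 in KO spleen and 19.3 and 21.5 in WT spleen. FOS transcripts thus never exceeded JUN transcripts, and the 2 sums were closest in KO adipose tissue. In adipose tissue the ranges of Junb and Fos did not overlap within either genotype. Below them, Jun, Jund, Fosb and Atf3 changed places between the 2 libraries of each adipose group, so no order among these 4 is given.

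**Figure D3:**
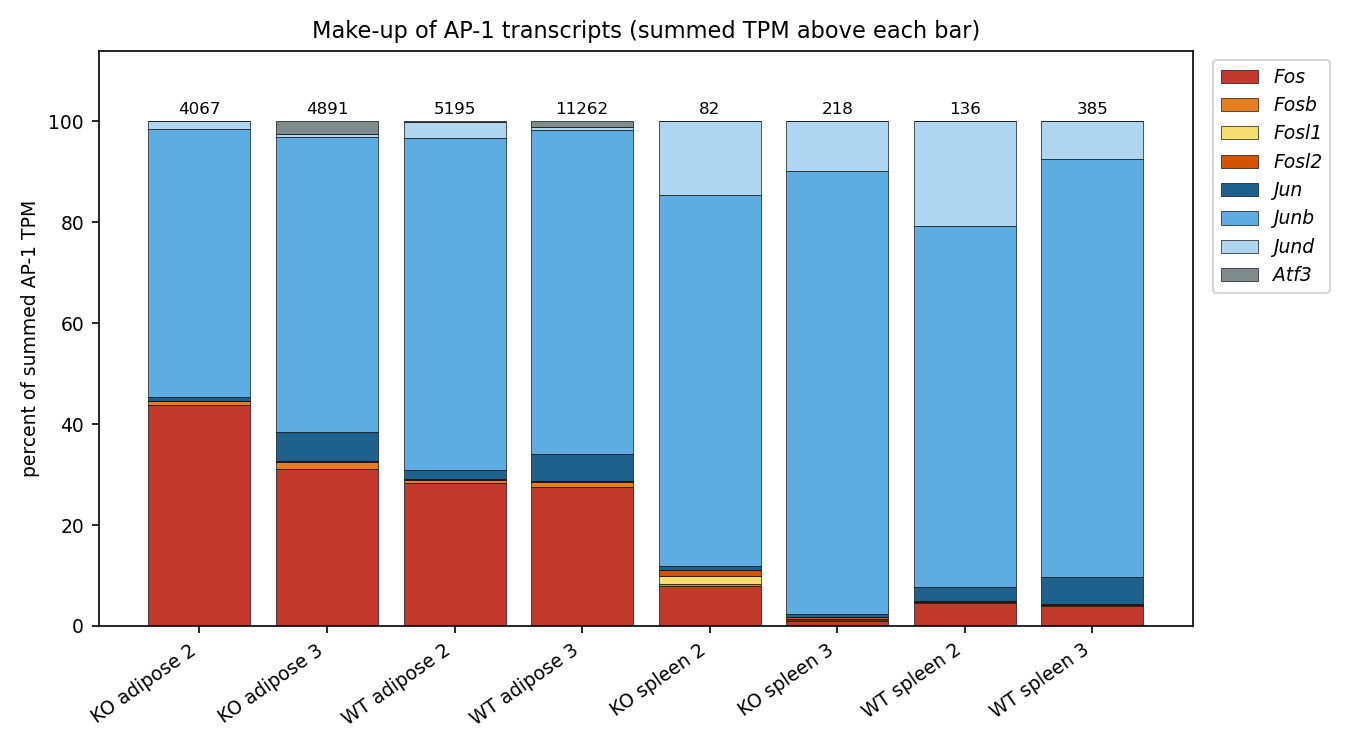
Share of each AP-1 gene in the summed AP-1 TPM of a library, in percent, with the summed TPM above each bar. Fos (red) takes 27.6% to 43.7% in adipose libraries and at most 7.91% in spleen libraries, where Jund (pale blue) takes 7.36% to 20.8%.

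Between genotypes, no member passed the test in either tissue. In adipose tissue limma called 0 of 8 members at an adjusted p under 0.05, with 0 at an unadjusted p under 0.05. Of all 13376 tested genes 0.284% were called (0.277% higher and 0.00748% lower in KO), and 932 had an unadjusted p under 0.05. In spleen it again called 0 of 8, with 0 at an unadjusted p under 0.05, and 0% of tested genes, with 64 genes at an unadjusted p under 0.05. The genotype by tissue interaction called 0 of 8 as well, with 0 at an unadjusted p under 0.05 and 0.0299% of tested genes called, with 409 genes at an unadjusted p under 0.05. Its log2 values ranged from -1.68 for Atf3 to 0.96 for Jun. The intervals below are wide, so these counts do not show that the genotypes were alike. Groups share 1 spread here, although replicate gaps had SDs of 1.49 and 1.07 in adipose tissue and 0.838 and 0.696 in spleen. The spleen test can therefore miss differences. Quantile normalization moved the median log2 fold change of all tested genes in adipose tissue to -0.089 for KO against WT, beside -0.27 as deposited, so a value of a member is read against that shift. The median over the 8 members was -0.71 in adipose tissue and -0.44 in spleen.

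The 3 JUN genes had lower values in KO than in WT in each of the 4 pairs of same-numbered libraries, and so did Fosb. That is 4 of 8 members, where 15.4% of tested genes had this pattern, and 0 of 8 were higher in KO in all 4 pairs, where 2.33% of tested genes were. These counts take the order alone, whatever the size of the gap. For Fosb the log2 gap in adipose tissue was -0.027 between libraries numbered 2 (30.5 against 31.1 TPM) and -0.83 between those numbered 3. In spleen the Fosb gaps were -0.21 and -0.14, from values under 1 TPM. Fosb thus adds little to a lower level in KO. Other transcripts differed between the genotypes as well. The erythroid sum was 34706 and 65648 TPM in the KO adipose libraries against 38.4 and 3798 TPM in the WT adipose libraries, and 1186 and 107608 TPM in the KO spleen libraries against 15709 and 46666 TPM in the WT spleen libraries. The sum of 11 core T cell genes was 9864 and 3620 TPM in the KO adipose libraries against 9508 and 6987 TPM in the WT adipose libraries, and 9979 and 7936 TPM in the KO spleen libraries against 9789 and 7664 TPM in the WT spleen libraries. Their part in the AP-1 values was not tested. For Jun the log2 fold change (KO against WT) was -1.37 in adipose tissue (SE 1.24, 95% interval -4.21 to 1.46, limma adjusted p = 0.806) and -2.33 in spleen (SE 1.24, interval -5.17 to 0.50, limma adjusted p = 1). In adipose tissue its genotypes overlapped, and without KO adipose 2 the value was 0.27. In spleen both KO libraries were below both WT libraries.

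For Jund the log2 fold change (KO against WT) was -1.24 in adipose tissue (SE 0.55, interval -2.50 to 0.020, limma adjusted p = 0.729) and -0.78 in spleen (SE 0.55, interval -2.04 to 0.49, limma adjusted p = 1). Both KO libraries lay below both WT libraries in each tissue. For Junb it was -0.999 in adipose tissue (SE 0.71, interval -2.62 to 0.63, limma adjusted p = 0.783), where the groups did not overlap, and -0.71 in spleen (SE 0.71, interval -2.34 to 0.92, limma adjusted p = 1), where they did. In adipose tissue 2 of 8 members (Junb, Jund) were lower in KO without overlap, against 27.5% of tested genes, and 0 of 8 were higher, against 7.66%. In spleen 3 of 8 (Fosb, Jun, Jund) were lower, against 13.9%, with Fosb under 1 TPM in each spleen library. The adipose share is near that of all genes.

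Fos, Fosl2 and Atf3 gave no steady order between genotypes. For Fos the log2 fold change (KO against WT) was -0.38 in adipose tissue (SE 0.57, interval -1.69 to 0.93, limma adjusted p = 0.882) and -1.13 in spleen (SE 0.57, interval -2.44 to 0.18, limma adjusted p = 1). It was 0.27 in adipose tissue and 0.074 in spleen between libraries numbered 2, and -1.03 and -2.34 between those numbered 3. Fosb was -0.43 in adipose tissue (SE 0.67, interval -1.96 to 1.11, limma adjusted p = 0.888) and -0.17 in spleen (SE 0.67, limma adjusted p = 1). Fosl2 was -0.40 in adipose tissue (SE 0.69, interval -1.98 to 1.18, limma adjusted p = 0.899) and 0.28 in spleen (SE 0.69, limma adjusted p = 1). Fosl1 was 0.33 in adipose tissue (SE 0.63, limma adjusted p = 0.908) and 0.66 in spleen (SE 0.63, limma adjusted p = 1), both from very low levels. For Atf3 the adipose value was -1.65 (SE 1.98, interval -6.21 to 2.91, limma adjusted p = 0.845), made of -3.23 between libraries numbered 2 and -0.069 between those numbered 3. In spleen 2 of 8 members (Fosl1, Atf3) were higher in KO without overlap, against 5.93% of tested genes, both of them from values under 2 TPM.

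**Figure D4:**
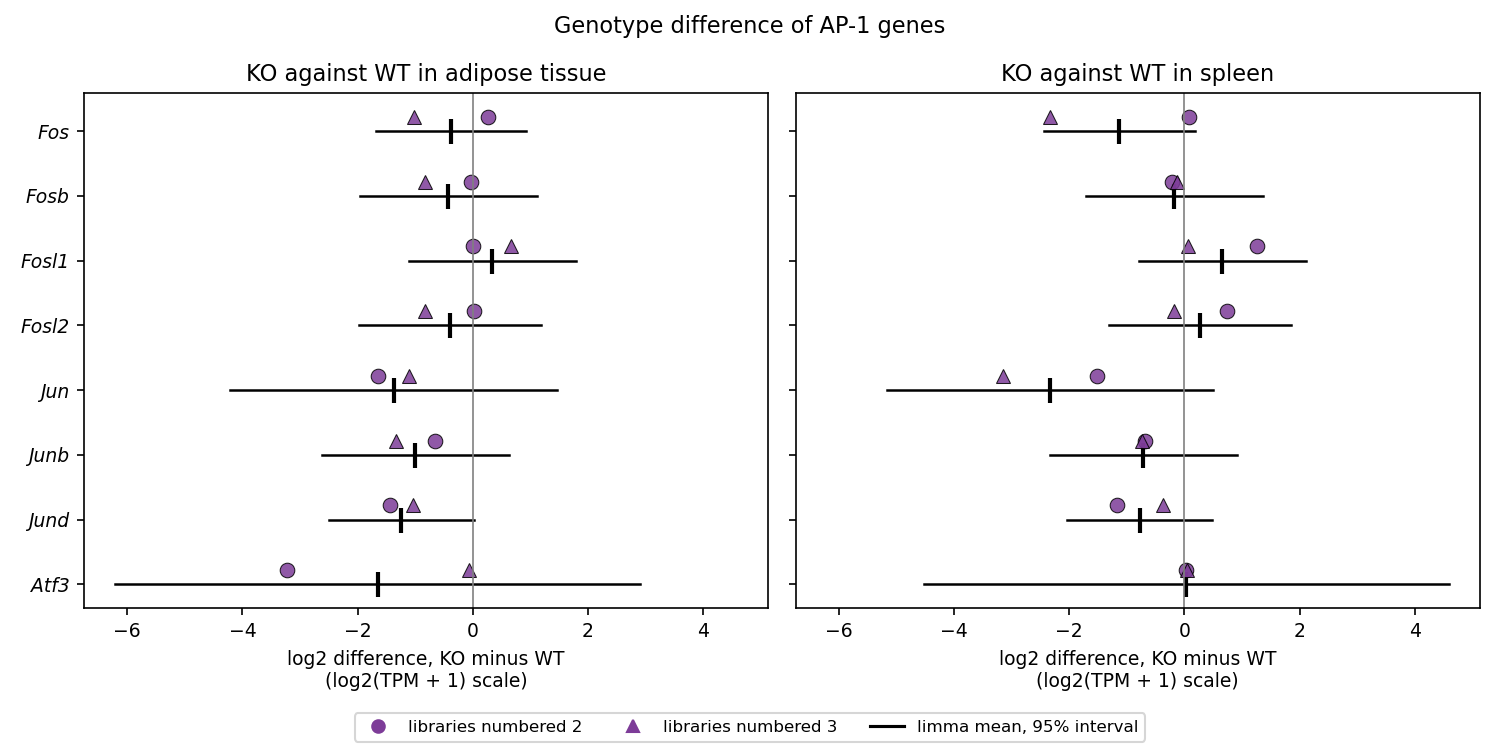
Difference of KO minus WT for each AP-1 gene on the log2(TPM + 1) scale in adipose tissue (left) and spleen (right), with circles for libraries numbered 2, triangles for those numbered 3, and black lines for the limma mean and its 95% interval. All points for Jun, Junb and Jund lie below 0 in both tissues, and all intervals include 0.

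The adipose libraries with high Atf3 and Jun also differed in transcripts of other cell types. Adipocyte markers summed to 14.3 and 13805 TPM in the KO adipose libraries and to 3.96 and 2018 TPM in the WT adipose libraries, against 1.03 to 6.35 TPM in the spleen libraries. Most of this was Fabp4, with Adipoq, the adipocyte hormone adiponectin, at 0.029 and 112 TPM in the KO adipose libraries and 0 and 9.46 TPM in the WT adipose libraries. In both genotypes the library numbered 3 was the one with these transcripts, as it was for Atf3. The 6 endothelial markers summed to 13.2 and 453 TPM in the KO adipose libraries and to 38.2 and 58.4 TPM in the WT adipose libraries, and 9 fibroblast and mesothelium markers to 730 and 3591 TPM in KO and to 0.329 and 4.80 TPM in the WT adipose libraries.

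Summed macrophage and monocyte markers were also higher in the adipose library numbered 3 in both genotypes, but at a low level in WT. They were at 9.41 TPM in WT adipose 2 and 21.04 TPM in WT adipose 3, where Atf3 was at 125 TPM. Adgre1 rose from 3.91 to 16.001 TPM between these WT libraries and Lyz2 from 2.70 to 4.05 TPM, while Cd68, C1qb and C1qc fell. In WT adipose 3, C1qa, Mrc1 and Cd14 were at 0 and Csf1r was at 0.048 TPM. In KO adipose 3, Atf3 was at 119 TPM with Lyz2 at 4982 TPM and C1qa at 1194 TPM. Fos and Junb were high in WT adipose 2 as well, where adipocyte, macrophage and fibroblast markers summed to 3.96, 9.41 and 0.329 TPM. The part of other cells in the levels of Atf3 and Jun was not tested.

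**Figure D5:**
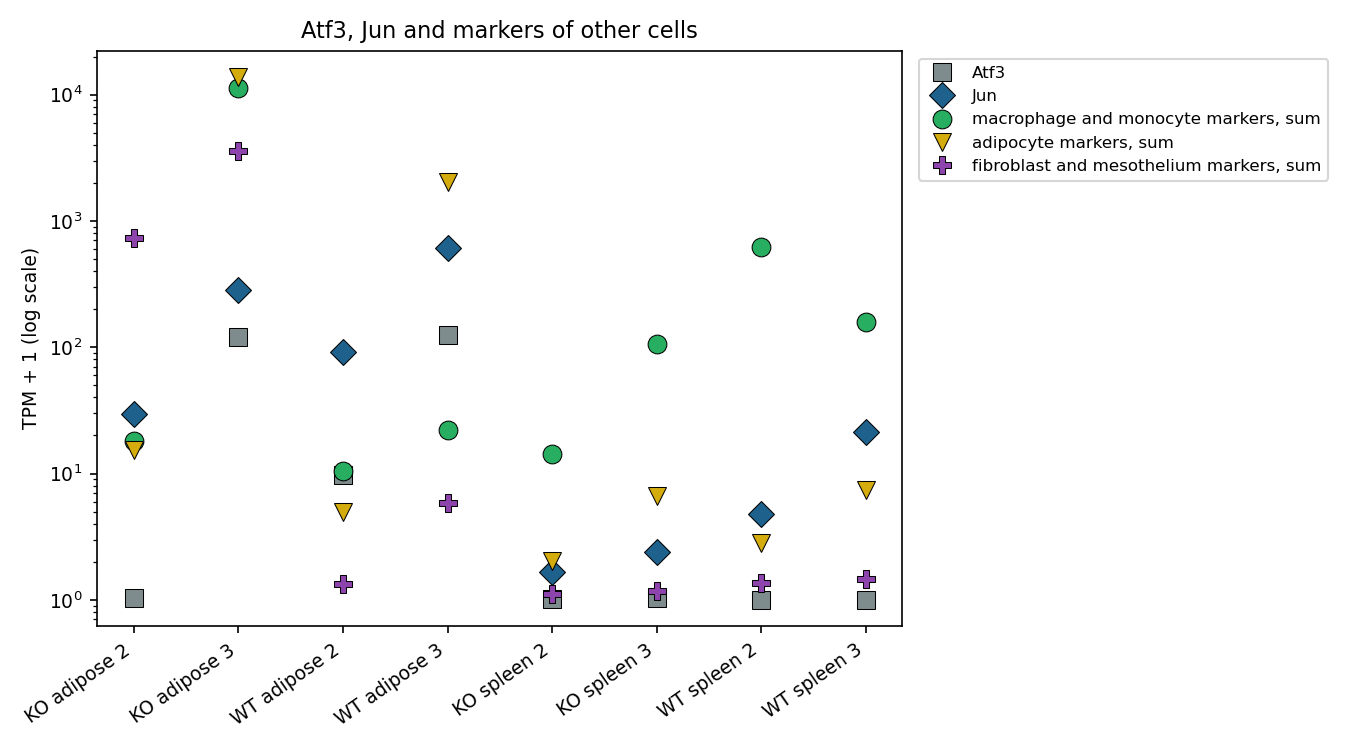
TPM + 1 on a log axis of Atf3, Jun and the summed markers of macrophages and monocytes, adipocytes, and fibroblasts and mesothelium in each of the 8 libraries. Atf3 is high in KO adipose 3 (119 TPM) and WT adipose 3 (125 TPM), the libraries with 13805 and 2018 TPM of adipocyte markers, while macrophage markers reach 11200 TPM in KO adipose 3 and 21.04 TPM in WT adipose 3.

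The wider pathway was read from lists of other genes. Of 30 other zipper factors 28 were tested. In KO, 1 was called between adipose tissue and spleen, Nfe2l2, the regulator of antioxidant genes, at 64.7 and 71.9 TPM in the adipose libraries, set against 10.9 and 19.8 TPM in the spleen libraries (log2 fold change 2.14, SE 0.39, limma adjusted p = 0.0485), where 0.927% of all tested genes were called as higher. The Nfe2l2 call was lost whenever any 1 of the 8 libraries was left out. In WT limma called 0 of 28. At an unadjusted p under 0.05 there were 9 of 28 in KO and 7 of 28 in WT. Over all tested genes it was 1720 of 13376 in KO and 1741 in WT. The median log2 fold change of the list was 0.35 in KO and 0.25 in WT, near the 0.16 and 0.32 of all tested genes.

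Batf, the zipper partner of JUN proteins that works with Irf4 in effector T cells, had the opposite order to the AP-1 members. It was at 253 and 128 TPM in the KO adipose libraries, 210 and 145 TPM in the WT adipose libraries, 794 and 397 TPM in the KO spleen libraries, and 576 and 475 TPM in the WT spleen libraries. Adipose libraries lay below spleen libraries in both genotypes, but the log2 fold changes of -1.64 in KO (SE 0.46, limma adjusted p = 0.184) and -1.58 in WT (SE 0.46, limma adjusted p = 0.251) did not pass. Bach2, a repressor that competes at AP-1 sites, was at 0.798 and 2.27 TPM in the KO adipose libraries against 7.99 and 8.44 TPM in the KO spleen libraries (-1.93, SE 0.55, limma adjusted p = 0.189). In WT it was at 2.97 and 5.21 TPM in the adipose libraries, set against 13.5 and 12.9 TPM in the spleen libraries (-1.51, SE 0.55, limma adjusted p = 0.322).

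Among the kinases and factors that lie above Fos and Jun, limma called 0 in any comparison. At an unadjusted p under 0.05 there were 3 of 27 kinases in KO and 9 of 27 in WT between the tissues, and 0 of 14 factors, where 1720 of 13376 genes in KO and 1741 in WT reached it. Of 28 MAP kinase pathway genes 27 were tested, with positive log2 fold changes of adipose tissue against spleen in 21 in KO (median 0.59) and 23 in WT (median 0.91), beside medians of 0.16 and 0.32 over all tested genes. Map2k1, the kinase MEK1 that activates ERK, was at 78.5 and 65.7 TPM in the KO adipose libraries and 88.5 and 117 TPM in the WT adipose libraries, against 20.4 and 38.4 TPM in the KO spleen libraries and 25.4 and 36.3 TPM in the WT spleen libraries, without overlap (limma adjusted p = 0.224 in KO and 0.18 in WT). The 14 factors that switch on Fos and Jun, such as Elk1, had medians of 0.17 in KO and 0.53 in WT. In the 12 genes for T cell partners of AP-1, which include Batf, the medians were 0.15 in KO and 0.65 in WT, with 3 genes in KO and 4 in WT at an unadjusted p under 0.05.

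Of 12 tested genes that limit AP-1 transcripts or proteins limma called 0 between the tissues. At an unadjusted p under 0.05 there were 2 in each genotype, where 1720 of 13376 genes in KO and 1741 in WT reached it. The medians were -0.04 in KO and 0.32 in WT. Zfp36, which encodes tristetraprolin and destabilises Fos and cytokine transcripts, was at 184 and 530 TPM in the KO adipose libraries and 336 and 1067 TPM in the WT adipose libraries, against 33.2 and 81.9 TPM in the KO spleen libraries and 77.9 and 107 TPM in the WT spleen libraries. The tissues did not overlap, but the difference did not pass without the replicate block (2.56, SE 0.70, limma adjusted p = 0.171 in KO, and 2.70, SE 0.70, limma adjusted p = 0.202 in WT). With the block Zfp36 was called in both genotypes.

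Genes known as AP-1 targets stood higher in adipose tissue in part. Of 25 listed 20 were tested, and 3 rose in KO adipose tissue against KO spleen, the cytokine genes Il5 and Il6 and the filament gene Vim, while limma called 0 in WT, with 9 at an unadjusted p under 0.05. Over all tested genes 0.927% were called as higher in KO and 0.135% in WT. An unadjusted p under 0.05 was reached by 1741 of 13376 tested genes in WT. The counts moved with the settings: they were 0 in both genotypes with a pseudocount of 5 and with no filter, 2 in KO and 2 in WT with a pseudocount of 0.1, 3 in KO and 3 in WT with a filter at 5 TPM, and 4 in KO and 3 in WT with the replicate block. A difference between the genotypes in these counts is therefore not shown. Il5 and Il6 were under 1 TPM in each spleen library, so they passed the filter only through the adipose libraries. Il5 was at 80.2 and 129 TPM in the KO adipose libraries against 0 and 0.192 TPM in the KO spleen libraries (6.55, SE 0.97). In WT, Il5 was at 15.8 and 176 TPM in the adipose libraries against 0 and 0 TPM in the spleen libraries. Csf2 encodes GM-CSF and is a classic NFAT and AP-1 target. It was at 41.5 and 764 TPM in the KO adipose libraries against 1.35 and 0.296 TPM in the KO spleen libraries (6.69, SE 1.26). In WT it was at 202 and 1015 TPM in the adipose libraries against 0.166 and 1.04 TPM in the spleen libraries (8.20, SE 1.26).

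Il2, the T cell growth factor gene, was at 88.0 and 41.3 TPM in the KO adipose libraries against 6.41 and 1.55 TPM in the KO spleen libraries. In WT it was at 30.2 and 92.5 TPM in the adipose libraries against 0.464 and 0.462 TPM in the spleen libraries (5.21, SE 0.73). The median log2 fold change of the target list was 1.65 in KO and 1.31 in WT, above the 0.16 and 0.32 of all tested genes. This list too was chosen with earlier results of these data known, so its tissue values are a description and support nothing. Leaving out 1 library gave 0 to 4 called targets in KO and 0 to 2 in WT, with 0 in KO without KO adipose 3 or any 1 spleen library, and 2 in WT (Il2, Il5) without WT adipose 2. Most of these cytokine genes are made by effector T cells, and Il6 and Vim are made by other cell types as well.

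The other immediate early genes stood with Fos and Junb. Of 24 listed 23 were tested, and 8 were called as higher in adipose tissue than in spleen in KO and 6 in WT, where 0.927% and 0.135% of all tested genes were, with 0 called as lower in either. This list was known to be high in adipose tissue when the family was chosen, so its counts and fold changes are a description and support nothing. With no filter there were 3 in KO and 0 in WT, and in WT there were 10 with a filter at 5 TPM and 10 with the replicate block. Ppp1r15a, which encodes the stress phosphatase subunit GADD34, was at 376 and 663 TPM in the KO adipose libraries against 7.22 and 37.5 TPM in the KO spleen libraries (log2 fold change 4.81, SE 0.75). The early gene Ier3, which limits apoptosis, reached 73.4 and 131 TPM in the KO adipose libraries against 4.28 and 4.13 TPM in the KO spleen libraries (log2 fold change 4.25, SE 0.48). In KO the count was 10 without KO adipose 2, 0 without KO spleen 2, 3 without KO spleen 3, and 2 without KO adipose 3 or either WT spleen library. In WT it was 0 without WT spleen 2, 1 without KO adipose 2, KO adipose 3, WT adipose 3 or WT spleen 3, and 4 without WT adipose 2 or either KO spleen library. Between genotypes limma called 0 genes of these 7 lists in either tissue, with 0 to 3 per list in adipose tissue and 0 in spleen at an unadjusted p under 0.05. Leaving out KO adipose 2 leaves 1 KO adipose library. The lists of other zipper factors and of AP-1 targets then no longer stood at 0 between genotypes in adipose tissue. Nor did the other zipper factors in the interaction.

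The genes whose profile over the 8 libraries lay closest to that of each member were found by the root mean square difference of log2(TPM + 1) after each gene was centred on its own mean, where 0 means the same profile. Changes from values near 0 are understated on this scale, so genes close on it can differ in their ratios of TPM. For Fosl2 the closest was Gadd45b, at 0.123, then Dusp6 at 0.313 and Trip10 at 0.343. From WT spleen 2 to WT adipose 2, Fosl2 went from 0.151 to 5.87 TPM and Gadd45b from 59.8 to 387 TPM. Gadd45b was at 325 and 511 TPM in the KO adipose libraries, 387 and 997 TPM in the WT adipose libraries, 99.1 and 74.5 TPM in the KO spleen libraries, and 59.8 and 97.6 TPM in the WT spleen libraries. For Junb the closest were Ppp1r15a (0.337), Ly6g5b (0.558) and Lmna (0.567), and for Fosb they were Anxa1 (0.384), Il6 (0.541) and Lmna (0.581).

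No gene came as close to Fos, whose nearest were Csf2 (1.32), Il5 (1.37) and Anxa1 (1.502), with a spread of Fos itself over the 8 libraries of 4.34 (SD, log2). For Jun they were Tuba8 (0.842), Pcsk1 (1.02) and Arg1 (1.02), and for Atf3 Ifi27l2b (0.805), Pcsk1 (0.813) and Alox5 (0.835). Jund was closest to Golm1 (0.259), Actn2 (0.297) and Mob3a (0.304). Fosl1, which varied little (SD 0.55), lay closest to Arl3 (0.223). Among the members, the closest pair was Fosb and Junb (0.729), then Jun and Junb (1.08).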

How the data were processed

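Members, gene lists and tests were chosen with earlier results of these data known. The deposited values are TPM, one column per library: each column sums to 1000000. Per the submitters' processing notes the genome build was mm9. The aligner, counting tool, strand setting and annotation were not stated. Reverse transcription used SMARTer v4 chemistry for very low input, and Nextera XT made the libraries, per the labels' protocols. Since TPM holds no read totals, depth is unknown, and counting intervals are not given.

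The test took genes that reached 1 TPM in 2 or more libraries (13376 genes, with all 8 members; the filter can pass a gene through 1 group). One limma 3.58.1 fit (R 4.3.3) on log2(TPM + 1), with a variance trend, 4 groups and 4 residual degrees of freedom, gave 5 contrasts. Benjamini-Hochberg adjustment ran over all tested genes, with a threshold of 0.05. One spread is shared by all groups, although the SD over genes of the gap (log2) between replicate libraries was 1.49 in KO adipose tissue, 1.07 in WT adipose tissue, 0.838 in KO spleen and 0.696 in WT spleen. The fit was tested on simulated data. File headers call the library numbers experiments. Differences between the numbers correlated across genes with r of 0.351 between the adipose groups and 0.382 between the spleen groups. Across the tissues r was weaker, from 0.128 to 0.185. Same-numbered libraries were compared as pairs on this ground. The main fit left the pairing out, and the replicate block was an alternative. All members and Id2 are named, with up to 4 genes of smallest p per list and the 3 profiles closest to each member among named genes with a mean of at least 5 TPM. Prdx2, given for its overlap with Junb, stands outside this rule. No positions are in the table; sequences are from RefSeq (GRCm38.p6). Alternatives were a pseudocount of 0.1 or 5, no filter or one at 5 TPM, quantile normalization, no trend, a replicate block, the 4 libraries compared alone, and leaving libraries out. Some calls among the listed genes are not reported here.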

Additional observations from a re-analysis of the deposited data

How the results depend on the processing

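Between genotypes and in the interaction, 0 AP-1 genes were called with limma under every alternative run. Between the tissues in KO, where 3 were called, the count was 1 with no filter and 1 with the 4 libraries compared alone, 0 without both KO libraries numbered 2, and 1 to 4 when 1 library was left out. Between the tissues in WT, where 2 were called, it was 3 with a filter at 5 TPM, 1 with a pseudocount of 5, 1 with quantile normalization, 1 without the trend, 0 with no filter, 0 with the 4 libraries compared alone, 0 without both KO libraries numbered 2, and 0 to 2 when 1 library was left out. With the replicate block it was 4 in WT and 4 in KO, and the block changed no call between genotypes. Over all tested genes the block gave 236 calls between the tissues in KO, beside 144 without it, 78 between the tissues in WT, beside 22, 43 between genotypes in adipose tissue, beside 38, and 0 in the interaction, beside 4.

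Signs of the genotype differences turned with single libraries. Leaving out 1 library gave, for KO against WT in adipose tissue, log2 fold changes of -0.91 to 0.16 for Fos, -1.30 to 0.45 for Fosb, -0.36 to 1.03 for Fosl1, -1.20 to 0.39 for Fosl2, -3.01 to 0.27 for Jun and -5.08 to 1.78 for Atf3. Junb stayed between -1.54 and -0.46 and Jund between -1.92 and -0.56. In spleen it gave -0.10 to 0.66 for Fosl2 and -1.56 to 0.14 for Junb. The interaction ran over -1.13 to 0.62 for Fosb, -1.02 to 0.37 for Fosl1, -1.47 to 0.11 for Fosl2, -0.68 to 2.60 for Jun, -1.14 to 0.56 for Junb, -1.14 to 0.21 for Jund and -5.11 to 1.74 for Atf3. Without both KO libraries numbered 2, the adipose value was 0.050 for Fosb, 0.27 for Jun and 1.78 for Atf3, the spleen value 0.12 for Junb, and the interaction 0.18 for Fosb, 0.67 for Fosl1 and 1.74 for Atf3. With a pseudocount of 0.1 the interaction of Fosb was 0.0798, and with 5 that of Jun was -0.000121. The cause of these changes was not tested.

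When 1 library was left out, calls over all tested genes between genotypes in adipose tissue ranged from 6 without WT adipose 3 to 343 without KO adipose 2, beside 38. Between the tissues in KO they then ranged from 1 without KO spleen 2 to 663 without KO adipose 2, beside 144. Between the tissues in WT they then ranged from 0 without WT spleen 2 to 39 without WT adipose 2, beside 22. In the interaction they then ranged from 0 to 177 (without KO adipose 2), beside 4. Other settings gave, between genotypes in adipose tissue, 13 with a pseudocount of 0.1, 18 with a filter at 5 TPM, 72 with quantile normalization, 0 with the 4 libraries compared alone and 162 without both KO libraries numbered 2. Between the tissues in KO they gave 70 with a pseudocount of 0.1, 89 with 5, 63 with no filter, 231 with quantile normalization, 12 with the 4 libraries compared alone and 0 without both KO libraries numbered 2. Between the tissues in WT they gave 59 with a filter at 5 TPM, 7 without the trend, and 0 with no filter, with the 4 libraries compared alone or without both KO libraries numbered 2. In the interaction they gave 0 with a pseudocount of 0.1, no filter, a filter at 5 TPM or without both KO libraries numbered 2, 10 with quantile normalization and 16 without the trend. With the 4 libraries compared alone and the filter set on those 4, an alternative chosen after seeing the data, they were 46 between the tissues in KO, 217 in WT, 0 between genotypes in adipose tissue and 2 in spleen. The unknown depth and 2 libraries per group limit what these values can show, most of all for Fosl1 and for Atf3 in spleen.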

Other observations

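Heat shock genes, many of which respond to protein damage, were described beside the AP-1 genes. All 13 listed were tested and 0 were called in any comparison with limma; without KO adipose 2, Hspa1a was called between the tissues in KO, and without KO spleen 3, Hspe1 was. The median log2 fold change of adipose tissue against spleen was 0.43 in KO and -0.08 in WT. Hspe1, a mitochondrial chaperone gene, was at 119 and 126 TPM in the KO adipose libraries against 723 and 232 TPM in the KO spleen libraries, and at 113 and 118 TPM in the WT adipose libraries against 274 and 264 TPM in the WT spleen libraries. The difference did not pass (-1.73, SE 0.49, limma adjusted p = 0.18 in KO, and -1.21, SE 0.49, limma adjusted p = 0.354 in WT). Hspb1, a small chaperone gene, was at 12.4 and 602 TPM in the KO adipose libraries and 3.12 and 59.8 TPM in the WT adipose libraries, high in the libraries numbered 3, as Atf3 was.

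The library numbered 3 exceeded the library numbered 2 in all 4 groups for 3 of 8 members (Fosb, Jun, Junb), where 24.2% of tested genes did so. Jun differed by 3.28 in KO adipose tissue, 2.74 in WT adipose tissue, 0.52 in KO spleen and 2.15 in WT spleen on the log2(TPM + 1) scale. Jund differed by -0.95 in KO adipose tissue, -1.35 in WT adipose tissue, 0.79 in KO spleen and 0.0025 in WT spleen.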
